A study of Homo sapiens with 10 samples.

Results

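Peaks of wild-type (WT) MYC that lie deep inside protein-coding genes were examined. A WT peak was counted when its summit fell inside the span of a protein-coding gene, more than 5 kb and at most 50 kb from the nearest protein-coding gene end. Of 4749 WT peaks, 504 met this rule (10.6%, Wilson 95% interval 9.77 to 11.5%), and they lay in 469 host genes. They are called deep peaks here. The assay was chromatin immunoprecipitation sequencing of FLAG-tagged MYC in U2OS cells, a human osteosarcoma line whose own MYC gene had been knocked out. All cells carried a doxycycline-inducible FLAG-MYC, and all were mixed with mouse NIH3T3 fibroblasts at 10% as a spiked-in reference genome. Immunoprecipitates (IPs) of the induced mutants 3A and 7A and of induced WT had 2 libraries each, induction being 1 µg/mL doxycycline for 24 h. The uninduced and input groups were 2 IPs of uninduced WT cells and 1 input each of induced and uninduced WT cells. The labels do not say which residues 3A and 7A change, or whether a line is 1 clone. MYC came from an inducible transgene in every induced group, so its level was not set by the MYC gene itself.

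The values are 3 peak lists, 1 for each induced protein, with coordinates on hg38. The sources used here do not say how the 2 libraries of a protein entered its list. There are therefore no values per library and no replicate error, and the proteins were not tested against each other. Intervals below cover counting error within a list only. Fold is the authors' own enrichment of each peak over its local background, and it is used here to rank peaks within 1 list. Read totals per library and peak calls in uninduced cells were not used here, so no site was set against the uninduced level.

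MYC is a basic helix-loop-helix leucine zipper transcription factor that binds DNA as a dimer with MAX. The dimer prefers the E-box CACGTG and also binds related letters such as CACGCG, mostly in open chromatin at gene starts and, when MYC is abundant, at enhancers. A site deep inside a gene can be an alternative start of that gene, the start of another transcript or a regulatory element. Gene spans do not tell these apart, so the starts of transcripts in a RefSeq table (GRCh38.p14) were set beside the summits. The table held 396 of the 469 host genes. Exons were not in the tables used, so exons and introns were not told apart.

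Of the 504 deep peaks, 169 had their summit within 1 kb of a start in that table. The start was the host's own in 148 cases and that of a long non-coding RNA (lncRNA) in 21. A start inside a gene span and away from its ends is called internal here. Whether such a start is the main start of its gene was not analysed. For 257 peaks the host was in the table and no start lay within 1 kb. For the remaining 78 the host was not matched and no tabulated start lay within 1 kb. The sequences printed here are the stretches from 250 bases before to 30 bases after the start for 6 of the 8 deep peaks with the highest fold among those with a summit within 100 bp of a start. They are shown because each is a start inside a gene span with a strong WT peak on it. The first 5 hold a match to CACGTG, or to CACGCG on either strand, which is in capitals. AHCY is shown as a case with no match in its window. The other two of the 8, SLC19A1 and ADORA2B, held no match in that stretch either and are not printed. The stretches are PM20D2 (chr6:89145805-89146084, plus strand), TMEM268 (chr9:114611041-114611320, plus), PES1 (chr22:30591881-30592160, minus), BRWD1 (chr21:39313603-39313882, minus), AEN (chr15:88621090-88621369, plus) and AHCY (chr20:34302961-34303240, minus), each written 5′ to 3′ on the strand of the gene.
PM20D2: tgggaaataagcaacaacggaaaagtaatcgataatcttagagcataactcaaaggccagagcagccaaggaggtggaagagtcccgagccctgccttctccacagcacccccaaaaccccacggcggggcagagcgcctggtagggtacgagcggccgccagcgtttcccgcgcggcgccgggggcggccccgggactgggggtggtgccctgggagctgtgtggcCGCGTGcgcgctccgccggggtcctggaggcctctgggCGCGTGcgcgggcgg
TMEM268: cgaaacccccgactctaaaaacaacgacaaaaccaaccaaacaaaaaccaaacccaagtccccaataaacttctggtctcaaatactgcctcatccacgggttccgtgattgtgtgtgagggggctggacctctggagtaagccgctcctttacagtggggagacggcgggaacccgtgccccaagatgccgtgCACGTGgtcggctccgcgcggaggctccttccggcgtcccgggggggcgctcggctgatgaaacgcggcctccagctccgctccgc
PES1: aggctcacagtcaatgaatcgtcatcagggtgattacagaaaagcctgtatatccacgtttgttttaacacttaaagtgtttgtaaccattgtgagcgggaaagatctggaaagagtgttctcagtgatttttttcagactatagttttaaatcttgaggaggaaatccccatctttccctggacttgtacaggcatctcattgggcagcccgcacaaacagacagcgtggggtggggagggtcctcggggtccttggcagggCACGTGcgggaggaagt
BRWD1: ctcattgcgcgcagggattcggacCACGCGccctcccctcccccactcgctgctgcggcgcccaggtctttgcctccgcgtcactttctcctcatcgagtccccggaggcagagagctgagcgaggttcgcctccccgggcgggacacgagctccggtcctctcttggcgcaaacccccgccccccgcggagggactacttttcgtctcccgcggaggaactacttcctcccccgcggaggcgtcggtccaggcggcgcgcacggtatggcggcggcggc
AEN: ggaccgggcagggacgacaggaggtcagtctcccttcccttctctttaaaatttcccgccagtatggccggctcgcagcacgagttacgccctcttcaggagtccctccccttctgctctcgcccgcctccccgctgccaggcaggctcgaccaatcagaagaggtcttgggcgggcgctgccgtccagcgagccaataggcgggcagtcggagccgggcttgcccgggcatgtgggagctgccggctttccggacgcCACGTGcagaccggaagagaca
AHCY: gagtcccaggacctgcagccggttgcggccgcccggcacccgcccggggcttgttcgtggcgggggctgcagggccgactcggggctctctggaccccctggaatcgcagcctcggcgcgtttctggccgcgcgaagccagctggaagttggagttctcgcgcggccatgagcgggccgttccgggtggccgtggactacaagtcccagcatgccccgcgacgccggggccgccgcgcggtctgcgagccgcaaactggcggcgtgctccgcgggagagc

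With the start base counted as 1, CACGTG began at position 14 in PES1, a ribosome biogenesis gene, and at position 9 in AEN, which encodes a nuclease of the p53 response. It began at position -56 in TMEM268, a transmembrane protein gene. CGCGTG, which is CACGCG on the other strand, began at positions -23 and 16 in PM20D2, a peptidase gene, and CACGCG at position -226 in BRWD1, a bromodomain protein gene. AHCY encodes the hydrolase that clears S-adenosylhomocysteine. The WT peaks at PM20D2, PES1, BRWD1, AEN and AHCY overlapped a 3A peak, and the one at TMEM268 did not.

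The same 2 motifs were searched on both strands in every window of the table, 300 bases long, from 250 before to 50 after the start. CACGTG and CACGCG differ by 1 letter and cannot match at the same place. Of 222 windows overlapped by a deep WT peak, belonging to 170 genes, 16.7% held CACGTG, 30.2% held CACGCG and 45.0% held either. Among the 3555 windows in the same deep zone without a WT peak, the shares were 5.09%, 6.84% and 11.4%. Over all 35084 windows they were 7.25%, 11.4% and 17.4%, and over the 4241 windows overlapped by any WT peak 16.9%, 28.7% and 41.0%. Base composition moved with these shares. The median GC content was 68.2% in deep windows with a WT peak, 53.0% in deep windows without one and 58.7% in all windows, and its part in the motif shares was not tested. Of the 37 windows overlapped by a deep WT peak that also had a 3A peak, 18.9% held CACGTG and 48.6% held either motif.

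Deep peaks were about as strong as WT peaks elsewhere. Their median fold was 5.36 (quartiles 4.32 to 6.66, range 1.79 to 30.5), against 5.14 over all WT peaks and 5.07 (4.07 to 6.75) over the 2855 WT peaks within 1 kb of a protein-coding gene end. In all, 53 deep peaks (10.5%, 8.13 to 13.5%) had a fold above 9.08, the level that 10% of all WT peaks pass, and 8 were among the 50 highest. The median width of deep peaks was 713 bp (quartiles 547 to 958), against 856 bp (660 to 1143) at gene ends. The median summit pileup, recovered from fold and p as a count of reads, was 69 in deep peaks and 77 at gene ends, over local backgrounds of 11.9 and 14.2.

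Deep peaks were not denser than peaks between genes. Inside genes the zone of 5 to 50 kb from a gene end covered 589.2 Mb and held 0.855 WT peaks per Mb. Outside genes the same distances covered 475.0 Mb and held 414 WT peaks, or 0.872 per Mb. Within 1 kb of a gene end the density was 39.3 per Mb. Inside genes it was lower at greater distance, at 1.13 per Mb from 5 to 10 kb, 0.900 from 10 to 20 kb, 0.840 from 20 to 30 kb and 0.603 from 30 to 50 kb. The same steps outside genes gave 1.09, 0.938, 0.875 and 0.665 per Mb. The median deep summit was 16715 bp from a gene end.

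The highest deep peak was also the highest of the whole WT list. It had a fold of 30.5 and lay inside PPRC1, a gene of the PGC-1 coactivator family linked to mitochondrial biogenesis (chr10:102132700-102134098), 602 bp downstream of an internal start of PPRC1. ING5, a histone mark reader of acetyltransferase complexes, followed with a fold of 24.0 (chr2:241700839-241703033), and URI1, a prefoldin-like chaperone gene, with 21.3 (chr19:29941743-29943232). Both summits were upstream of an internal start, by 457 bp in ING5 and 136 bp in URI1. PALD1 had a fold of 20.6 (chr10:70477579-70479320), HID1, a gene of the secretory pathway, 20.3 (chr17:74960713-74961295), and KLF16, a zinc finger factor, 19.3 (chr19:1863953-1865082). SLC19A1, the reduced folate carrier, had a fold of 17.9 at an internal start (chr21:45541366-45542029). The last of the 10 were PSD4, an exchange factor for ARF proteins (16.5), LPO, lactoperoxidase (16.0), and CLN6, an endoplasmic reticulum protein mutated in a lysosomal storage disease (14.9). The LPO summit was 797 bp upstream of the start of a lncRNA, LOC124904038. The PSD4 summit had no tabulated start within 1 kb, and the HID1 summit had a host outside the table. Of these 10, 7 had a 3A peak, and PALD1, HID1 and SLC19A1 had none.

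**Figure D1:**
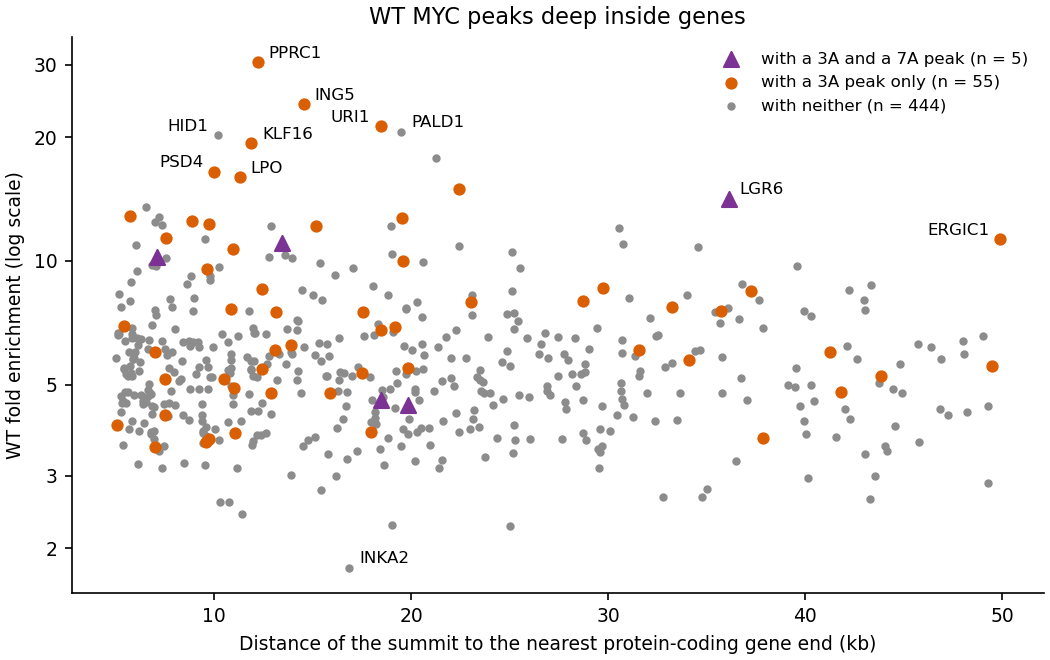
Each point is 1 of the 504 deep WT peaks, with the distance of its summit to the nearest protein-coding gene end in kb on the x axis and its WT fold on a log y axis. Triangles mark the 5 peaks with a 3A and a 7A peak, large circles the 55 with a 3A peak only and small grey points the 444 with neither. The folds run from 1.79 at INKA2 to 30.5 at PPRC1, and peaks with a 3A peak occur over the whole range of distances.

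Summits near internal starts gathered closely around them. Of the 169 peaks within 1 kb of a start, 119 were within 300 bp and 61 within 100 bp. The median summit lay 45 bp downstream of the start (quartiles -113 to 218), with 98 summits downstream, 70 upstream and 1 at the start itself. These peaks had a median fold of 5.50 and a median width of 853 bp, close to the 856 bp of peaks at gene ends. The 257 peaks away from starts had a median fold of 5.33 and a median width of 673 bp. The median folds of the 2 classes were close, and the median widths were further apart. The lncRNA starts included those of NRXN2-AS1, 28 bp from the summit in the synaptic adhesion gene NRXN2 (fold 8.03), and MAPK6-DT, at the summit in the kinase gene MAPK6 (4.22). They also included EPB41L4A-AS1, where the peak with a fold of 6.90 had a 3A peak of 3.55.

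**Figure D2:**
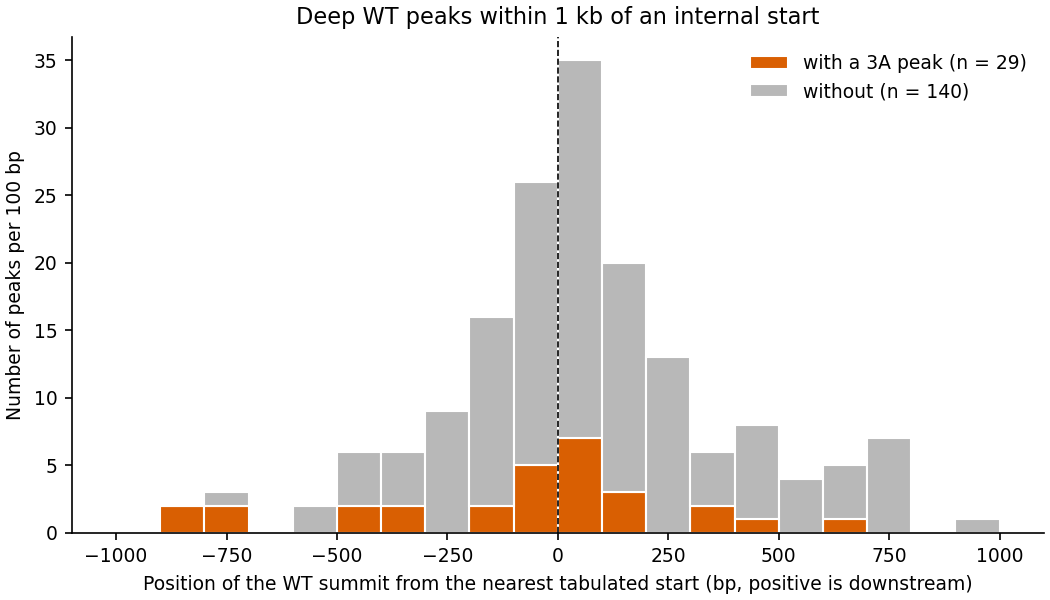
The plot shows the position of the summit from the nearest tabulated start in bp, positive being downstream, for the 169 deep peaks within 1 kb of one. Bars count peaks per 100 bp, with the 29 that have a 3A peak at the bottom of each bar and the 140 without above them. Of the summits, 119 lie within 300 bp of the start.

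A smaller share of internal starts than of starts at the end of a gene span had a WT peak. Of the 2286 starts of protein-coding genes in the deep zone, 206 (9.01%, 7.91 to 10.3%) had a WT summit within 1 kb. Of the 13842 starts at a span end, 2487 (18.0%, 17.3 to 18.6%) had one. In 968 genes with both kinds of start, 16 had a WT summit at both, 62 at the deep start only, 125 at the end only and 765 at neither. Hosts had a WT peak at an end of their own at about the share of other genes. Of the 469 hosts, 85 (18.1%, 14.9 to 21.9%) also had a WT summit within 1 kb of an end of their span, against 2459 of 13702 other genes that could hold a deep peak (17.9%). The difference was 0.177 percentage points (Newcombe 95% interval -3.11 to 3.97).

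Position along the gene could be read for 424 peaks whose host had a strand in the table. The median relative position was 0.431 of the span from the 5′ end (quartiles 0.238 to 0.682), and the median distance from the 5′ end was 25483 bp. Peaks near a start leaned to the 5′ side, with a median of 0.352, and 65.3% of them lay before the middle of the gene. Peaks away from starts had a median of 0.494, with 51.0% before the middle. With the gene split into 5 equal parts from the 5′ to the 3′ end, the parts held 26.9, 28.7, 22.2, 16.2 and 5.99% of the peaks near a start. Tabulated protein-coding starts in the deep zone were spread in a like order, at 25.7, 28.6, 19.8, 17.5 and 8.40%. The peaks away from starts fell at 17.5, 21.8, 23.7, 21.8 and 15.2%, and the bases the rule allows at 22.8, 19.4, 15.4, 19.5 and 22.8%. The parts at the ends thus held a smaller share of the peaks away from starts than of the bases in reach, and the middle part a larger one. The bases were pooled over genes of every length, and in the longest genes the limit of 50 kb puts the middle out of reach. Gene length was not matched, and its part in this contrast was not tested. The nearest protein-coding gene end was the host's 5′ end for 206 peaks, its 3′ end for 149, an end of another gene for 78 and an end of an unmatched host for 71.

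**Figure D3:**
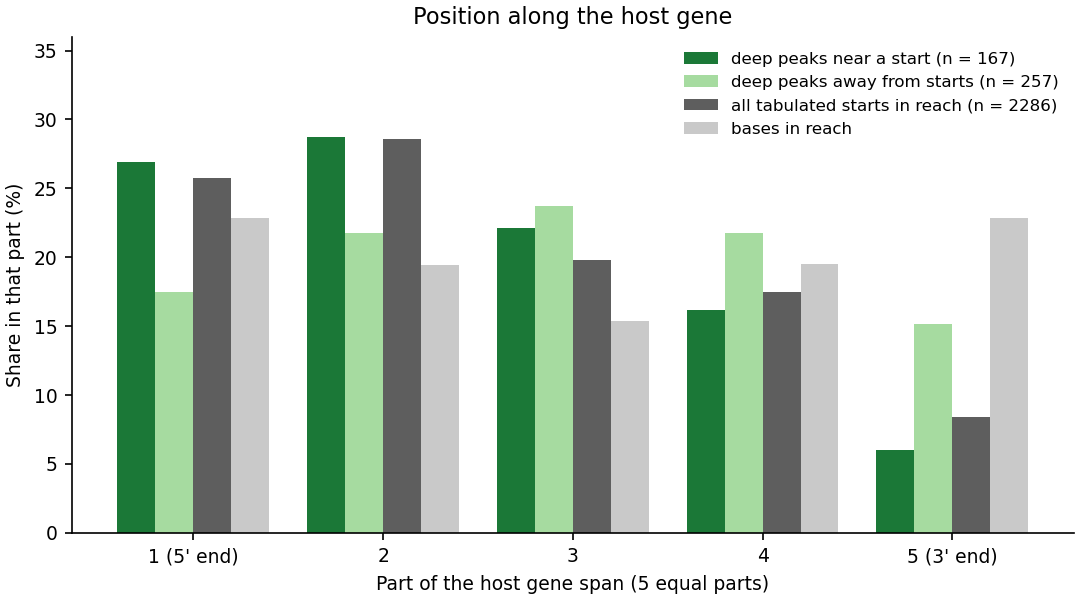
The bars give the share, in percent, in each of 5 equal parts of the host gene span from the 5′ to the 3′ end. The 4 bars of each part are deep peaks near a start (n = 167 with a strand), deep peaks away from starts (n = 257), all 2286 tabulated protein-coding starts in the deep zone and the bases the rule allows in genes with a strand. The part at the 3′ end holds 5.99% of peaks near a start and 15.2% of those away from starts.

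Deep peaks overlapped 3A peaks somewhat less often than other WT peaks. Of the 504, 60 shared at least 1 bp with a 3A peak (11.9%, 9.36 to 15.0%), beside 15.1% of all WT peaks. The share was 15.5% over the 4245 other WT peaks, a difference of -3.57 points (-6.35 to -0.279), and 17.9% at gene ends, a difference of -6.03 points (-8.96 to -2.62). It was 10.1% among the 414 WT peaks outside genes at the same distances, where the interval of the difference ran from -2.39 to 5.79 points. By distance from the gene end the deep share was 10.5% from 5 to 10 kb, 18.1% from 10 to 20 kb, 3.88% from 20 to 30 kb and 12.2% from 30 to 50 kb, with no steady order. Most shared summits were close together. The 3A summit was within 100 bp of the WT summit in 48 of 60 cases, with a median shift of 53 bp and a maximum of 704 bp. The median 3A fold of shared deep peaks was 3.53, against 3.41 over the whole 3A list.

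The overlap differed between the kinds of deep peak. Near a start, 29 of 169 deep peaks had a 3A peak (17.2%, 12.2 to 23.6%), a share that differed from that at gene ends by -0.774 points (-5.92 to 5.77). Away from starts 22 of 257 had one (8.56%, 5.72 to 12.6%), which was 9.37 points below gene ends (difference -9.37, -12.6 to -5.09). Between the 2 deep classes the difference was 8.60 points (2.21 to 15.6). It depended on how near counts as near. With a window of 300 bp the shares were 14.3% near a start and 11.1% away from starts, a difference of 3.21 points (-3.33 to 11.2). The split by starts was chosen after the data were seen. Among the 78 peaks whose host was not matched, 9 had a 3A peak (11.5%, 6.19 to 20.5%).

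**Figure D4:**
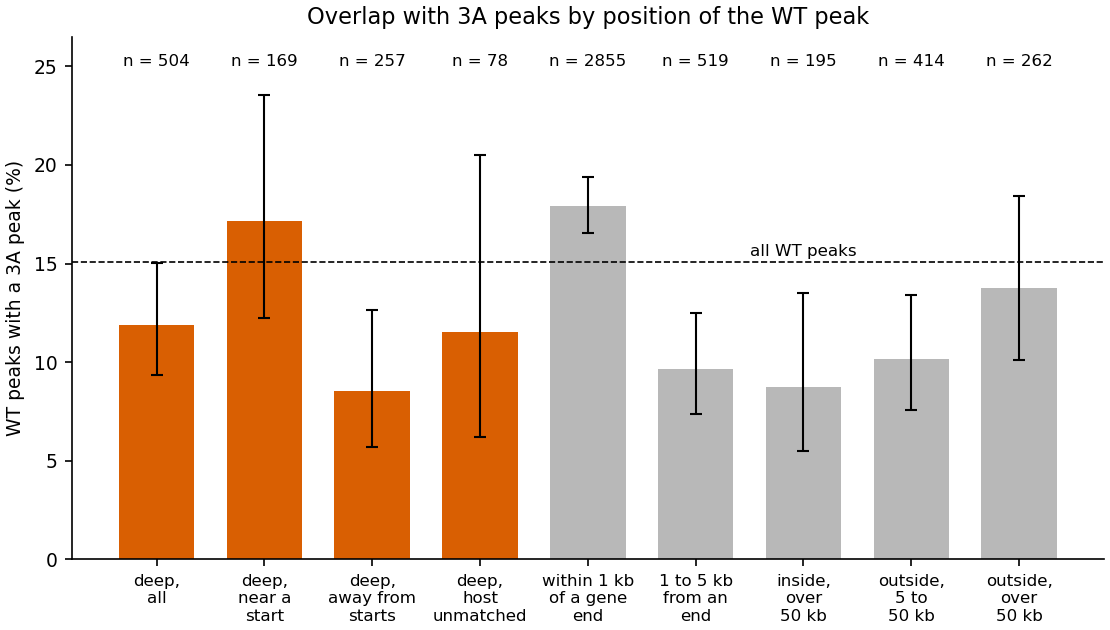
Bars give the percentage of WT peaks that overlap a 3A peak by at least 1 bp, with Wilson 95% intervals and the number of WT peaks above each bar. The coloured bars are deep peaks, all and by the position of tabulated starts, the grey bars are WT peaks elsewhere, and the dashed line is the 15.1% of all WT peaks. Deep peaks near a start sit at 17.2% and those away from starts at 8.56%, beside 17.9% at gene ends.

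Deep peaks with a 3A peak had higher WT folds. Their median fold was 7.23 (quartiles 5.16 to 11.1, n = 60), against 5.25 (4.24 to 6.48) in the 444 without. The probability that a deep peak with a 3A peak had the higher fold (AUC) was 0.699 (95% interval 0.622 to 0.776), and over all WT peaks it was 0.673 (0.650 to 0.696). With the deep peaks split by WT fold into 5 groups of equal size, from the lowest to the highest, 6.93, 5.94, 9.00, 7.92 and 29.7% had a 3A peak, so the share was higher in the highest group alone. By class, the relation was clear near starts. There the median fold was 8.59 with a 3A peak and 5.22 without, with an AUC of 0.826 (0.730 to 0.922). Away from starts the medians were 5.64 and 5.26, with an AUC of 0.571 (0.441 to 0.701). Both intervals cover counting error within a list only, and the split by starts was chosen after the data were seen. The AUCs of the 2 classes were not computed with another window around a start. Of peaks with a fold of at least 8, 15 of 33 near a start had a 3A peak (45.5%, 29.8 to 62.0%), and 5 of 33 away from starts (15.2%, 6.65 to 30.9%), beside 39.8% at gene ends. Pileup and local background moved with the overlap as well. Deep peaks with a 3A peak had a median background of 16.3, against 11.4 without, and a median pileup of 106.5, against 65. Their part in the result was not tested.

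**Figure D5:**
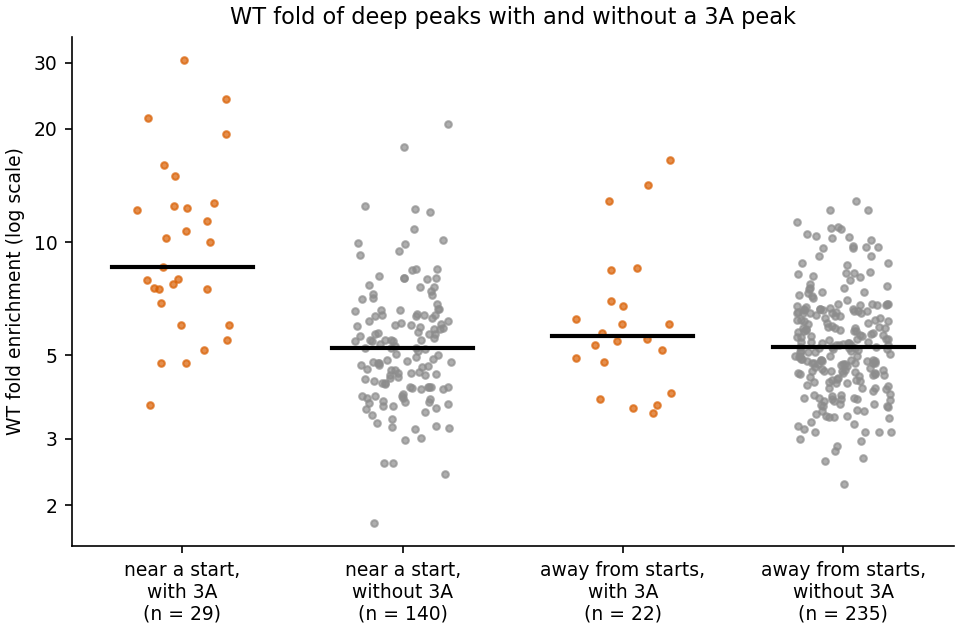
Each point is a deep WT peak, with its WT fold on a log y axis, for peaks near a start and away from starts, each with and without a 3A peak. Horizontal lines are medians, at 8.59 and 5.22 near a start and at 5.64 and 5.26 away from starts. Points are spread sideways at random.

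Of the 10 deep peaks with the highest 3A folds, 6 were within 1 kb of an internal start, beside 29 of all 60 with a 3A peak. ING5 led with a 3A fold of 7.34, followed by KLF16 with 5.96. AXL, a receptor tyrosine kinase gene, had 5.80 in 3A and 10.2 in WT, with its summit 435 bp upstream of an internal start. ERGIC1, a gene of traffic between endoplasmic reticulum and Golgi, had 5.22 in 3A and 11.3 in WT, and lay 49875 bp from the nearest gene end. C14orf39, a gene of the synaptonemal complex of meiosis, had 5.16 in 3A and 7.93 in WT, 39 bp from an internal start. BRWD1 had 5.12 in 3A and 11.4 in WT. ERCC1, a nucleotide excision repair nuclease gene, had 4.92 in 3A and 7.50 in WT at a start 38 bp away. The organic anion transporter gene SLCO4A1 (4.81), the lens filament gene BFSP1 (4.54) and the vesicle trafficking gene SYTL3 (4.53) completed the 10. BFSP1 and SYTL3 had no tabulated start within 1 kb of the WT summit, and ERGIC1 and SLCO4A1 were not in the table of starts.

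Away from starts the 22 peaks with a 3A peak had WT folds of 3.52 to 16.5. The highest were PSD4 (16.5 in WT, 3.67 in 3A), LGR6, a receptor for R-spondins (14.2 and 4.10), and EHD2, an ATPase gene of caveolae (12.8 and 3.77). RARA, the retinoic acid receptor alpha gene, had 8.54 in WT and 3.33 in 3A. A few of these sites were close to the end of a non-coding gene. The peak inside RPS29, with folds of 5.46 in WT and 2.65 in 3A, was 283 bp from RN7SL1, the RNA of the signal recognition particle. The peak inside GNAS, with 4.92 in WT and 3.19 in 3A, was 147 bp from an end of GNAS-AS1. The RPS29 and GNAS peaks were chosen after their values were seen.

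The strongest deep peaks without a 3A peak lay both at starts and away from them. After PALD1, HID1 and SLC19A1 came CERK, the ceramide kinase gene (13.5, chr22:46731055-46732031), MNT (12.8, chr17:2392433-2394244), TPRA1 (12.5, chr3:127590878-127591620), TMEM268 (12.2, chr9:114610901-114611580) and PFKFB3, a regulator of glycolysis (12.2, chr10:6163592-6164257). PALD1, SLC19A1, TPRA1 and TMEM268 had a start of the host within 1 kb. MNT and PFKFB3 had no tabulated start within 1 kb, and HID1 and CERK were not in the table. SLC19A1 held a second deep peak without a 3A peak, with a fold of 9.92 and its summit 4 bp from another of its starts.

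Overlap with 7A peaks was rare, at a share close to that of the whole WT list. Of the 504 deep peaks, 5 had a 7A peak (0.992%, 0.424 to 2.30%), beside 1.03% of all WT peaks. The difference from other WT peaks was -0.0445 points (-0.712 to 1.29). All 5 also had a 3A peak. AXL had folds of 4.15 in 7A, 5.80 in 3A and 10.2 in WT. LGR6 had 4.07 in 7A, 4.10 in 3A and 14.2 in WT. For NNMT, which encodes nicotinamide N-methyltransferase, the folds were 3.70 in 7A, 3.43 in 3A and 4.58 in WT. CUEDC1, a gene with a ubiquitin-binding CUE domain, had 3.48 in 7A, 4.13 in 3A and 11.0 in WT. ATAD2, a bromodomain ATPase gene, had 2.37 in 7A, 3.66 in 3A and 4.47 in WT. Each fold is relative to the background of its own list, so these values are set side by side and levels are not compared between proteins. AXL alone of the 5 had a tabulated start within 1 kb. LGR6 had none, and NNMT, CUEDC1 and ATAD2 were not in the table.

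The mutant lists held similar shares of deep peaks by the same rule. Of 845 3A peaks, 80 were deep (9.47%, 7.67 to 11.6%), and of 64 7A peaks 6 were (9.38%, 4.37 to 19.0%). Of the 80 deep 3A peaks, 61 overlapped a WT peak (76.3%, 65.9 to 84.2%), beside 86.7% of all 3A peaks. The other 19 did not. By 3A fold they were led by 4.84 in TRPM8, a cold-sensing channel gene, 4.06 in CPA5, a carboxypeptidase gene, and 3.86 in SLC2A1, the glucose transporter gene GLUT1. Their nearest WT summits were 283610, 305182 and 21830 bp away, in that order. The SLC2A1 site also had a 7A peak, with a fold of 4.05, and was the 1 deep 7A peak without a WT peak. The weakest of the 19, in VRK3, had a fold of 1.74 with a pileup of 1438 reads over a background of 826.3.

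Host genes were long, as the rule favours. The median host span was 71652 bp (quartiles 42519 to 122158), against 42847 bp for the 14171 genes that could hold a deep peak. Of those genes 3.31% held one. Most hosts, 431, had a single deep peak, 35 had 2 and 3 had 3. BAHCC1, a chromatin reader gene, had folds of 8.26, 4.78 and 4.37. FHL2, a LIM domain cofactor gene, had 6.54, 3.92 and 3.49. PLEC, which encodes the cytoskeletal linker plectin, had 5.82, 5.80 and 3.98. None of these 9 peaks had a 3A peak, beside 11.9% of all deep peaks. None of the 3 genes had a WT peak at an end of its span, beside 18.1% of all hosts. Both counts are too small to set against those shares. In SLC19A1 the 2 deep peaks had folds of 17.9 and 9.92, and in LGR6 14.2 and 4.13. The second LGR6 peak was 9 bp from the start of a lncRNA and had no 3A peak. Another WT summit lay within 5 kb of 25 deep peaks. The same count over other WT peaks is not given here, so it does not set deep peaks apart.

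Among 20 gene lists, the largest share of hosts was in the list named MAX and MLX network. There 4 of 12 genes that could hold a deep peak did so (33.3%, 13.8 to 60.9%), beside the 3.31% of all such genes. Of their 5 peaks 0 had a 3A peak, a count too small to set against the 11.9% of all deep peaks. MNT, a MAX partner that represses MYC targets, had a fold of 12.8. MGA, another MAX partner and repressor, had 5.48 at an internal start 37 bp from the summit, and MXI1, a MYC antagonist, had 4.66 at 170 bp. TFEB, a lysosomal regulator counted in this list, had 3.83 and 3.80 at 2 sites away from starts.

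Nuclear receptors and their coregulators had 5 hosts of 36 genes. After PPRC1 (30.5) and RARA (8.54), both with a 3A peak, came the orphan receptor NR2F2 (6.46) and the thyroid hormone receptor THRA (6.19), and PPARD, a fatty acid sensing receptor, had 5.75. Chromatin regulators had 5 hosts of 65. Their 6 peaks included 0 with a 3A peak, again too few to set against 11.9%. The histone demethylases KDM4B (8.14), KDM2B (8.04 and 4.76) and KDM2A (4.58) were among them, with the remodelling ATPase SMARCA2 (7.05) and the methyltransferase KMT2D (4.97). Summits in SMARCA2, KDM2A and the stronger KDM2B site were within 1 kb of a start of the host. The list does not hold every chromatin gene. Outside it, the histone mark reader ING5 and the bromodomain genes BRWD1 and ATAD2 each had a deep peak with a 3A peak. The chromatin reader BAHCC1, also outside it, had no 3A peak at its 3 deep peaks.

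Solute carriers and channels had 5 hosts of 44. Beside SLC19A1 these were SLC12A9 (8.51), the calcium channel gene CACNA1H (5.40), the amino acid transporter heavy chain SLC3A2 (5.16, with a 3A fold of 3.01) and the drug exporter ABCC3 (4.79). Splicing and RNA-binding genes had 4 of 37, with MBNL1 (8.43), LIN28B (5.90), AGO2 (5.78) and PTBP3 (4.35). All of these but AGO2 had a start of the host within 1 kb, and AGO2 was not in the table. Circadian clock genes had 2 of 17, the repressor NR1D2 (5.25) and the activator TEF (4.71). Receptor tyrosine kinases had 2 of 36, AXL and EPHA2 (3.18). TGF-beta and BMP signalling had 2 of 29, SMAD6 (4.44) and LTBP2 (2.96), and metabolic enzymes 2 of 37, PFKFB3 and the nucleotide synthesis gene CTPS1 (4.10). RPTOR, a subunit of the mTOR complex, had 5.03, the E3 ligase gene RNF220 10.0 and the matrix gene FBLN1 3.72, each the single host of its list.

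Of 30 canonical MYC targets, 25 had a WT summit within 1 kb of an end of the gene, beside 16.7% of all 20046 protein-coding genes. Of the 20 that could hold a deep peak 1 did (5.00%, 0.888 to 23.6%), a share near the 3.31% of all such genes. It was RCC1, a regulator of the GTPase Ran (6.63). Ribosome and translation genes had WT summits at the ends of 37 of 42 genes. Of the 25 that could hold a deep peak 0 did, a count that allows a share of up to 13.3% (Wilson upper bound) and so does not part the list from the 3.31%. No deep peak was found in 4 other lists. The listed genes that could hold one were 31 WNT and Hippo, 21 bone and mesenchymal, 19 liver and 13 keratinocyte and blood cell genes. These lists are too short for the counts to differ from the 3.31%. Each list is a selection and does not cover its whole class. WNT7B, a WNT gene outside the list, held 2 deep peaks, with folds of 4.47 and 3.55. Among 30 listed neuronal genes NRXN2 held a deep peak. The largest count in any list was 5 hosts, so none of these shares is precise.

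Deep peaks made up between 4.11% of WT peaks on chromosome X and 17.5% on chromosome 22, with the largest numbers, 46 each, on chromosomes 1 and 17. An end of a non-coding gene lay within 1 kb of 59 deep summits, of a lncRNA in 49 cases and a microRNA in 4. The share over other WT peaks is not given here, so these counts cannot be called many or few. The widest deep peaks were in PLEC (2620 bp, fold 5.82), TXNRD2, the mitochondrial thioredoxin reductase gene (2316 bp, fold 5.68), and SEPTIN9 (2268 bp, fold 9.74). The lowest folds were 1.79 in INKA2, 2.26 in MRC2 and 2.27 in GNAS, none with a 3A peak. At the lower distance limit, the summits in ITPA (5010 bp, fold 5.79) and WFDC3 (5058 bp, 3.98) were just inside it, and those in MSTO1 (4976 bp, 13.5) and UNC13A (4962 bp, 8.73) just outside. At the upper limit, ERGIC1 (49875 bp, 11.3) and WARS2 (49484 bp, 5.54) were just inside, and SMOC1 (51152 bp, 5.02) and COL28A1 (51227 bp, 4.08) just outside.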

How the data were processed

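The authors deposited 1 peak list for each of induced WT, 3A and 7A MYC, in the layout that MACS2 writes. Per the submitters' processing notes, the tools were MACS2, Bowtie2, cutadapt, SAMtools and Picard (no versions) and the builds hg38, hg19 and mm10 (no roles). The sources used here do not give the control, the joining of replicates or the use of mouse reads. Each deposited peak has the authors' fold, a ratio of pileup to local background, a −log10 p-value and a −log10 q-value. The deposited score was not used, and summit positions came from the authors' start and offset columns.

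Summits were placed against protein-coding spans of RefSeq GRCh38.p14 (20046 genes), and starts, strands and sequences came from the RefSeq promoter windows of the same build. The rule uses position only. The members and the gene lists were chosen with earlier results of these data known, and 731 of 732 listed symbols matched. The result of 1 gene list is not reported here. The genes named are the 10 highest WT folds, the 10 highest 3A folds, the 8 highest folds without 3A, all with 7A, the 5 hosts with the most peaks, the 3 widest and 3 weakest, 2 on each side of each limit and up to 4 peaks per list. Hosts with the same number of peaks were ordered by their highest fold. The names of the leading 3A peaks without WT, lncRNA starts and peaks away from starts with 3A were chosen after their values were seen. So were the list peaks past the fourth, at KDM2A, PPARD, SLC3A2, ABCC3 and the weaker sites of KDM2B and TFEB.

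Pileup and background were recovered from fold and p for 4749 of 4749 WT peaks, within a tolerance of 0.02 of the step between neighbouring pileups. Classification, overlap and recovery were tested on simulated data. Shares have Wilson and differences Newcombe 95% intervals, and the AUC a Hanley-McNeil interval. No test was run, since each protein has 1 list, and depth per library is unknown here, so its effect on the peak numbers was not analysed. The tools were pandas 2.3.3, scipy 1.17.1, numpy 2.4.6 and matplotlib 3.10.9 under Python 3.11.15. Alternatives covered the q threshold, distance limits, overlap rule, gene set, merging of peaks and the window around a start.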

Additional observations from a re-analysis of the deposited data

How the results depend on the processing

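Of 61 alternatives computed over the results, 59 left the value within its interval or, for a count, within 1.5 times. A direction could reverse only for the AUC and for the 3A share near a start against that away from starts. There, 0 alternatives reversed it. The differences in 3A share between deep peaks and other WT peaks were not recomputed under any alternative. Requiring 50% of both peaks to overlap lowered the share of deep peaks with a 3A peak to 8.93% (6.74 to 11.7%). Ranking by −log10 q gave an AUC for peaks with against without a 3A peak of 0.809 (0.741 to 0.877). The number of deep peaks was 464 at a −log10 q of at least 10, 655 from 2 kb, 361 from 10 kb, 622 up to 100 kb, and 391 with non-coding gene ends in the lower limit. The difference in 3A share between peaks near a start and away from starts fell to 3.21 points (-3.33 to 11.2) at 300 bp and was 6.94 at 500 bp and 8.71 at 2 kb, windows chosen after the data were seen. No paired analysis was possible because each protein has 1 peak list and no values per library, and for the same reason no replicate could be left out. With 5 deep peaks in 7A, their share is known no more closely than 0.424 to 2.30%.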
